A study of Rattus norvegicus with 72 samples.

Results

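The late light phase was compared directly with the early light phase in the dorsal vagal complex (DVC), using the 22 DVC samples taken at zeitgeber time (ZT) 3 or ZT9 out of 72 brain samples in the series, and all 145 genes measured. The members were chosen by sample label alone: 7 animals killed at ZT3 and 15 animals killed at ZT9, where ZT counts the hours since the lights came on, so that both points fall in the rest phase of a nocturnal animal. All animals were untreated, male Sprague Dawley rats, housed singly and kept on an alcohol-free Lieber DeCarli liquid diet whose daily amount was restricted to the calories taken by alcohol-fed partners, and both groups share this feeding regime. The animals were the control arm of an alcohol study, their age is given by body weight only, each sample pools the left and right punch of 1 animal, and no RNA was pooled between animals. The other DVC group (17 animals, ZT5) and samples of the amygdala's central nucleus (CeA, 7 samples at ZT3 and 12 at ZT9) are used only to place the result.

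The DVC is the brainstem station that receives vagal sensory input from the gut, heart and lungs. It comprises the nucleus of the solitary tract, the dorsal motor nucleus of the vagus and the area postrema, and it adjusts feeding, blood pressure and gut motility. Its neurons use glutamate, GABA and noradrenaline as well as many peptides, and the panel samples the chain from receptor to nucleus: transmitter receptors, G-proteins and the RGS proteins that switch them off, phospholipase C and protein kinase C, the Ras and MAP kinase cascade, and transcription factors such as the immediate early genes that neurons switch on shortly after stimulation.

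Expression was read as CT, the cycle number at which a PCR product crossed the detection threshold. A CT that is lower by 1 cycle stands for 2-fold more transcript at ideal efficiency, and all differences below are written as ZT9 minus ZT3 expression in cycles (a log2 scale), so that a positive value means more transcript at ZT9. The CT values themselves are those the authors quantile-normalized over all samples. Levels are not set against each other between genes, because each assay has its own efficiency.

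Each transcript was defined by a primer pair. Those of the 5 genes with the smallest p are printed, 5′ to 3′, because the results turn on what these assays amplify.
Fosl1 forward: gcaagcgcagacacagac
Fosl1 reverse: cactgacagcgttgatgctt
Hprt forward: gaccggttctgtcatgtcg
Hprt reverse: acctggttcatcatcactaatcac
Rasa1 forward: catctaataaacgccttcgtca
Rasa1 reverse: tggtagtttatgagcttcttcaatatg
Slc32a1 forward: gggctggaacgtgacaaa
Slc32a1 reverse: ggaggatggcgtagggtag
Rgs6 forward: ccttatgggacatagagatgagc
Rgs6 reverse: caaaagagaagccccaacg

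The median CT of a sample over the genes was 18.70 ± 0.89 cycles at ZT3 (SD, n = 7) and 18.84 ± 0.70 at ZT9 (SD, n = 15). No difference of these means was detected (two-sided exact permutation test, p = 0.690). Between 0 and 6 reactions failed per sample, and 119 of the 145 genes were measured in all 22 samples. The noradrenaline transporter Slc6a2, which marks the noradrenergic neurons of this region, was measured in 22 of the 22 DVC samples and in 0 of the 19 CeA samples at these times. ZT9 replicate 12 stood apart, with a root mean square deviation from its group's means of 1.25 cycles over the genes against at most 0.79 in the other ZT9 samples, so the counts that it moved most are also given without it. The labels number the animals, and all 7 ZT3 animals carry high numbers, whereas 5 ZT9 animals have numbers in or above that range and 10 lie below it. What the number stands for is not given in the sources used here. Results are therefore also given for the 5 higher-numbered ZT9 animals alone.

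The early and the late light phase differed in few transcripts beyond the spread between animals. The transcription factor gene Fosl1 rose and the purine salvage enzyme gene Hprt fell, and these 2 of 145 genes (1.38%) had an adjusted p at or below 0.05 in limma with Benjamini-Hochberg correction over all genes. Without that correction 22 genes (15.2%) reached p at or below 0.05, 11 higher and 11 lower at ZT9 (7.59% each), or 14 higher and 8 lower without ZT9 replicate 12. Of all 145 genes, 78 (53.8%) were lower at ZT9. In 61 genes (42.1%) the means differed by more than 0.25 cycles, and the median size of the difference over all genes was 0.19 cycles. In 0 of 145 genes (0.00%) did all ZT9 values lie outside the ZT3 range. The spread was somewhat wider at ZT9, with a median SD over genes of 0.38 cycles at ZT3 and 0.45 at ZT9, and 98 of the 145 genes had the higher SD at ZT9. Fosl1 and Hprt had the higher SD at ZT3. The tissue punch mixes cell types, so fewer cells of a type and less RNA per cell cannot be told apart.

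**Figure D1:**
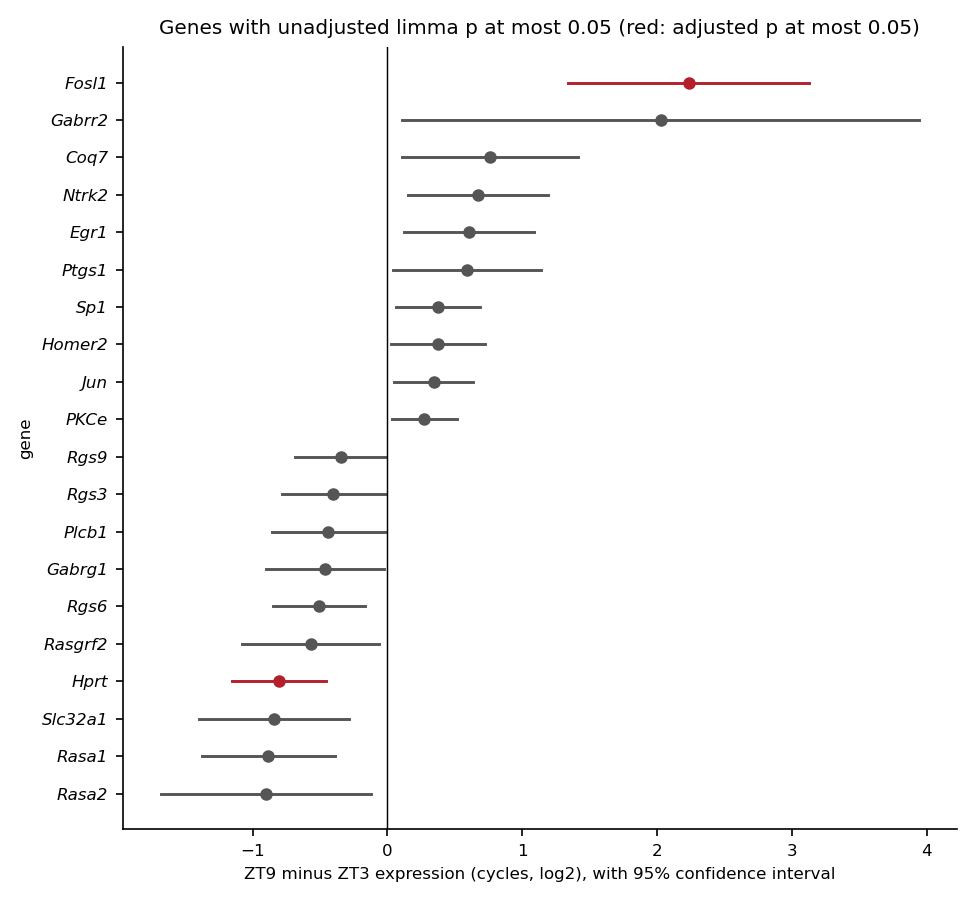
ZT9 minus ZT3 expression in the DVC (cycles, log2 scale) of 20 of the 22 genes with an unadjusted limma p at or below 0.05, with 95% confidence intervals from limma; red marks an adjusted p at or below 0.05. Fosl1 (2.23) and Hprt (-0.80) are the red genes, and the interval of Gabrr2 (0.11 to 3.94) is the widest.

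Fosl1 encodes Fra-1, a Fos-family partner of Jun in the AP-1 transcription factor. Its normalized CT at ZT3 was 25.79, 25.47, 24.29, 27.12 and 24.81 cycles in replicates 2, 4, 5, 6 and 7, and the reaction failed in replicates 1 and 3. At ZT9 the lowest, median and highest CT were 22.25, 23.36 and 24.81 over 13 samples, with replicates 1 and 6 failed. Every measured ZT9 sample therefore had more Fosl1 than the ZT3 mean, although the groups overlap, since ZT3 replicate 5 had a lower CT than ZT9 replicate 11. The means were 25.50 ± 1.08 (SD, n = 5) and 23.26 ± 0.81 (SD, n = 13), a rise of 2.23 cycles (SE 0.43) or 4.70-fold (limma adjusted p = 0.0058, exact permutation p adjusted over all genes 0.0254). Fosl1 was close to the detection limit: the highest value, 27.12, is the one that normalization gives to the highest CT of a sample. It was measured in 5 of 7 ZT3 and 13 of 15 ZT9 samples (two-sided Fisher's exact test, p = 0.565). The rise was 1.74 cycles with the 5 higher-numbered ZT9 animals (exact permutation p = 0.0238, limma adjusted p = 0.648) and 2.54 with the lower-numbered ones.

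Hprt encodes hypoxanthine phosphoribosyltransferase, an enzyme often used as a reference gene in PCR studies. Its normalized CT at ZT3 was 13.46, 13.44, 13.47, 14.70, 14.28, 14.27 and 14.30 cycles in replicates 1 to 7, and at ZT9 the lowest, median and highest CT were 14.27, 14.73 and 15.17 over 15 samples. All 15 ZT9 samples had less Hprt than the ZT3 mean, with overlap between ZT3 replicates 4 to 7 and the ZT9 range. The mean difference was -0.80 cycles (SE 0.17), 1.75-fold lower at ZT9, with a limma adjusted p of 0.0058 and an adjusted exact permutation p of 0.0254. The call did not hold with the 5 higher-numbered ZT9 animals alone (-0.73, exact permutation p = 0.0215, limma adjusted p = 0.648). The size depended on the scale. Hprt had among the lowest CT values of the panel, and quantile normalization gives a transcript the value of its rank in the sample, which for Hprt meant about 13.46 at rank 3 (3 ZT3 samples and 0 ZT9 samples), 14.28 at rank 4 (3 and 2 samples) and 14.71 at rank 5 (1 and 6 samples). On the non-normalized scale, as CT minus the median CT of the sample, Hprt was -5.12 ± 0.24 at ZT3 (SD, n = 7) and -4.82 ± 0.21 at ZT9 (SD, n = 15), so the difference kept its sign at -0.30 cycles but no longer passed (limma adjusted p = 0.207).

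**Figure D2:**
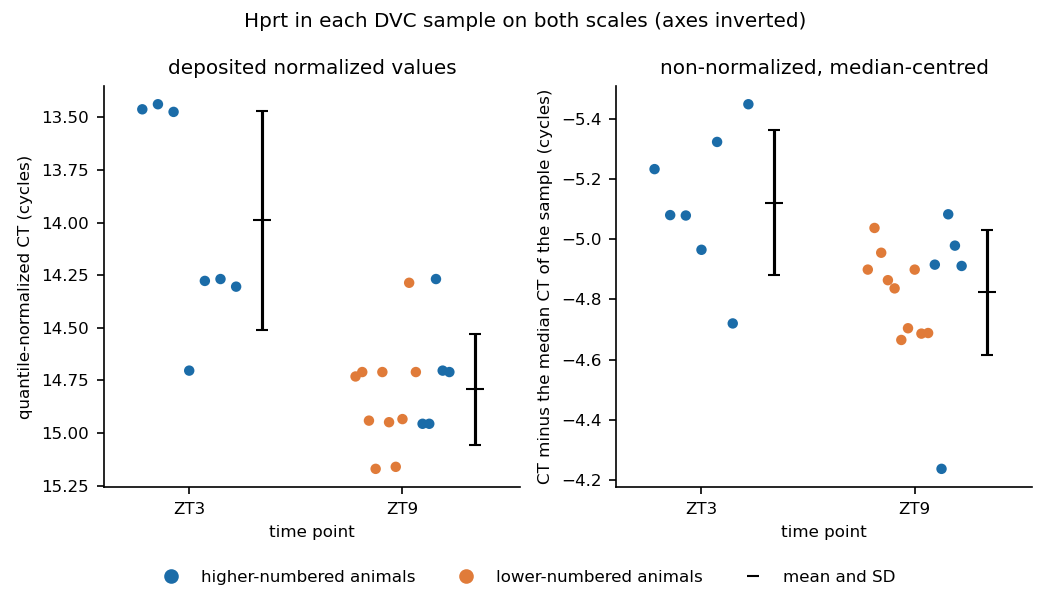
Hprt in each DVC sample as the deposited quantile-normalized CT (left) and as non-normalized CT minus the median CT of the sample (right), both in cycles on inverted axes; points are samples, coloured by animal number, and bars are mean and SD. On the left 3 ZT3 samples sit apart near 13.46 cycles, whereas on the right the 7 ZT3 samples spread from -5.45 to -4.72.

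Among the immediate early genes, 1 of 6 (Fosl1) passed with correction and 3 of 6 without it, all higher at ZT9 (against 7.59% of all genes), and the median difference of the list was 0.22 cycles against -0.01 over all genes. Jun, the core AP-1 subunit, was higher by 0.34 cycles (SE 0.14, limma p = 0.0234), and its relatives Junb (-0.39) and Jund (0.09) and the orphan nuclear receptor gene Nr4a2 (-0.09) did not pass. Against the higher-numbered ZT9 animals Jun differed by 0.07 (limma p = 0.688), and against the lower-numbered ones by 0.48. With all 3 time points in the fit Jun did not pass (limma p = 0.0602). Egr1, a zinc-finger transcription factor, had normalized CT values of 20.29, 20.70, 20.21, 20.68, 20.34, 19.996 and 21.49 cycles in ZT3 replicates 1 to 7. At ZT9 the lowest, median and highest CT were 18.84, 19.96 and 20.79. The difference was 0.60 cycles (SE 0.23, limma p = 0.0165, adjusted p = 0.289). It was uneven between animals: the 5 higher-numbered ZT9 samples (18.84 to 19.96, mean 19.38 ± 0.44 SD) all lay below the 7 ZT3 samples, the only gene of 145 (0.690%) whose groups did not overlap in that subset, while the 10 lower-numbered ones (19.71 to 20.79, mean 20.20 ± 0.34 SD) fell within or just below the ZT3 range. The difference was thus 1.15 cycles among higher-numbered animals (exact permutation p = 0.00126, the smallest that 792 splits allow, limma adjusted p = 0.147) and 0.33 with the others. Over all 15 ZT9 samples Egr1 did not pass with median-centred values (0.49, limma p = 0.0622) or without ZT3 replicate 7 (0.44, limma p = 0.0646).

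Of the CREB-linked and other transcription factor genes, 6 of 7 were higher at ZT9 (median 0.26, or 0.13 without ZT9 replicate 12), beside 67 of all 145 genes. In this direction 1 of 7 passed without correction, beside 7.59% of all genes. It was Sp1, a general activator that binds GC-rich promoters, higher by 0.38 cycles (SE 0.15, limma p = 0.0193). Creb1 (0.42) and Elk1 (0.36), which relay cAMP and MAP kinase signals to immediate early promoters, did not pass. When the samples were only median-centred, 4 of the 7 were higher (median 0.08 against -0.12 over all genes), and without any normalization 2 of the 7 (median -0.13 against -0.24). Against the higher-numbered ZT9 animals alone the direction of the list turned, with 3 of 7 higher and a median of -0.05. There Sp1 differed by 0.06, Creb1 by -0.05 and Elk1 by -0.12, and against the lower-numbered ones by 0.54, 0.61 and 0.60.

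**Figure D3:**
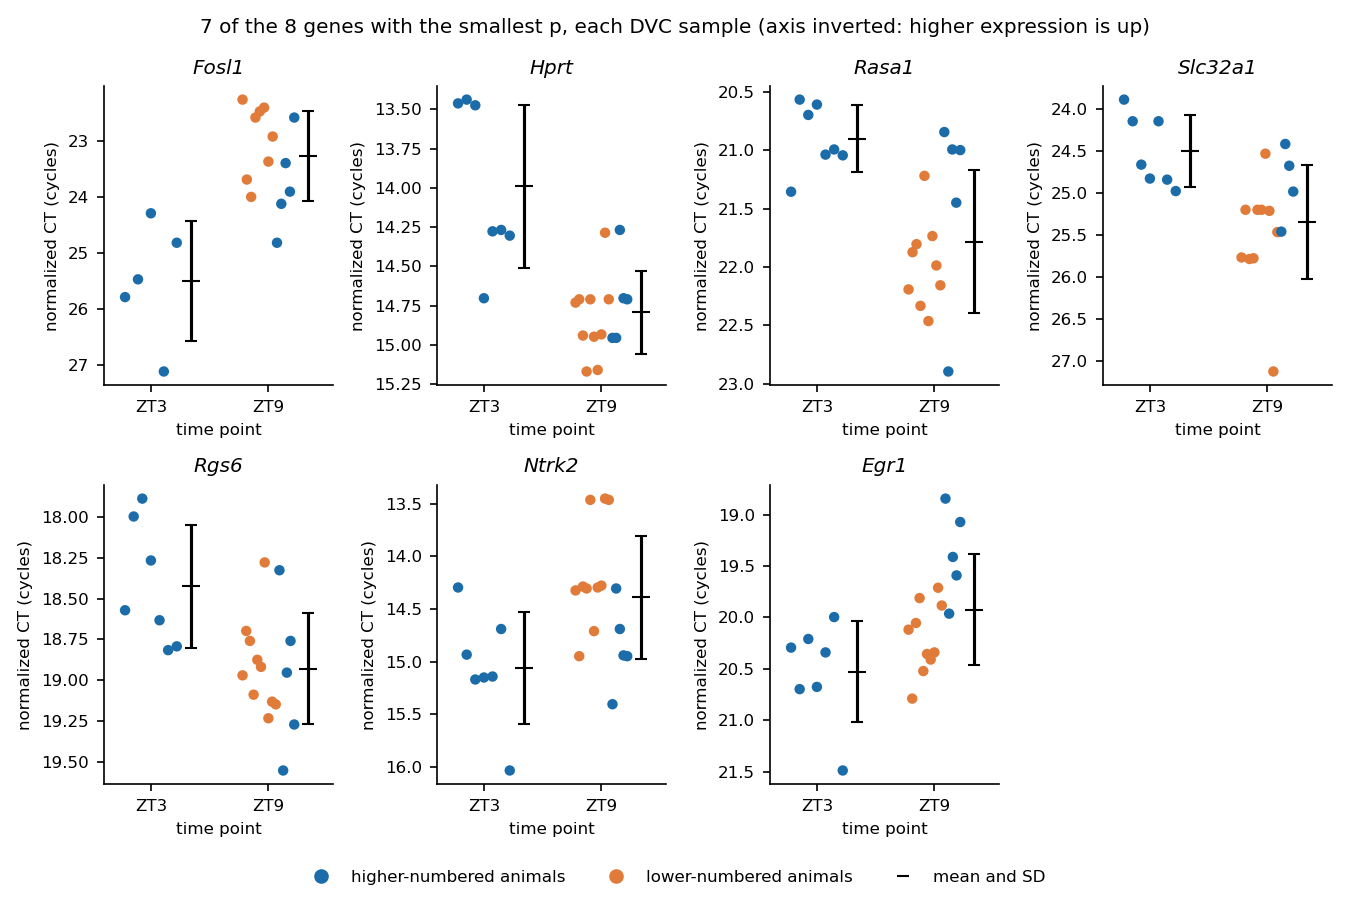
Normalized CT (cycles, inverted axis) of 7 of the 8 genes with the smallest p in each of the 22 DVC samples; points are samples, coloured by animal number, and bars are mean and SD. The groups overlap in every panel, and for Egr1 the blue ZT9 points (18.84 to 19.96 cycles) lie above all ZT3 points.

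The RGS genes, whose products speed up GTP hydrolysis by G-protein alpha subunits and so shorten receptor signals, were mostly lower at ZT9. Their median difference was -0.30 cycles. Of the 9 genes 8 were lower, beside 53.8% of all genes and 74.3% of the set of assays that holds the whole list. As lower, 3 of 9 passed without correction, beside 7.59% of all genes and 9 of the 74 in that set, and 0 of 9 passed after it. Rgs6 had normalized CT values of 18.57, 17.999, 17.89, 18.27, 18.63, 18.82 and 18.79 cycles at ZT3 and 18.28, 18.95 and 19.55 as lowest, median and highest at ZT9. It was lower in 13 of 15 ZT9 samples than the ZT3 mean, by 0.51 cycles on average (SE 0.17, limma p = 0.0054, adjusted p = 0.158). Rgs3 (-0.40, limma p = 0.0397) and Rgs9 (-0.35, limma p = 0.0439) were the others, and Rgs4 was the member with the opposite sign (0.58). Without ZT9 replicate 12 only 1 of the 9 passed, and within higher-numbered animals 7 of 9 were lower with a median of -0.09, Rgs6 keeping its size (-0.55) while Rgs3 (-0.09) and Rgs9 (-0.04) did not. Rgs12, named after its values were seen, had the lowest difference of the list (-0.87), and without ZT9 replicate 13, in which it had the highest CT of the panel at 27.12 cycles, its difference was -0.34.

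In the Ras and MAP kinase list 15 of 18 genes were lower at ZT9 (median -0.11), or 12 of 18 without ZT9 replicate 12 (median -0.08), beside 53.8% of all genes and 74.3% of the set of assays that holds the whole list. In this list 3 genes passed without correction, all lower, beside 7.59% of all genes and 9 of the 74 in that set. Rasa1 and Rasa2 encode GTPase-activating proteins that switch Ras off, and Rasgrf2 an exchange factor that switches it on, so the genes that passed have opposite actions on Ras. Rasa1 had normalized CT values of 21.35, 20.56, 20.70, 20.61, 21.04, 20.99 and 21.04 cycles at ZT3 and 20.84, 21.84 and 22.89 as lowest, median and highest of 14 measured ZT9 samples. It was lower than the ZT3 mean in 13 of these 14, by 0.88 cycles (SE 0.24, 1.84-fold, limma adjusted p = 0.060), and it passed the corrected threshold when the samples were only median-centred (-1.03, limma adjusted p = 0.0211). Among higher-numbered animals it differed by -0.54 cycles. Rasa2 differed by -0.90 (SE 0.38, limma p = 0.0252) and Rasgrf2 by -0.57 (SE 0.25, limma p = 0.0304), and against the higher-numbered ZT9 animals these became 0.04 and -0.06. In that subset 9 of the 18 genes were lower and 0 passed.

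Plcb1, the phospholipase that Gq-coupled receptors activate, was lower by 0.44 cycles (SE 0.20, limma p = 0.0418). Its list had 5 of 6 genes lower (median -0.06), beside 53.8% of all genes and 74.3% of the set of assays that holds 5 of the 6. Of these 6 genes 1 passed without correction as lower, beside 7.59% of all genes. Without ZT9 replicate 12 none of the list passed in that direction, and against the higher-numbered ZT9 animals Plcb1 differed by -0.09. In the protein kinase C list 6 of 9 genes were higher (median 0.12, beside 67 of all 145 genes), or 4 of 9 (median -0.06) in median-centred values. Of the 9, 1 passed without correction as higher, the assay labelled PKCe (0.27, limma p = 0.0278), beside 7.59% of all genes. Ntrk2, the receptor for brain-derived neurotrophic factor, had normalized CT values of 14.30, 14.93, 15.17, 15.15, 15.14, 14.69 and 16.04 cycles at ZT3 and 13.45, 14.31 and 15.41 as lowest, median and highest at ZT9. It was higher by 0.67 cycles (SE 0.25, limma p = 0.0135) and above the ZT3 mean in 14 of 15 ZT9 samples. Ntrk2 was the 1 gene of 8 in its kinase list to pass without correction, beside 7.59% of all genes in this direction. Against the higher-numbered ZT9 animals alone the Ntrk2 difference was 0.20. Like Hprt, Ntrk2 had among the lowest CT values, at a median rank of 7 at ZT3 and 4 at ZT9. As CT minus the sample's median CT it was -4.62 ± 0.35 at ZT3 (SD, n = 7) and -4.96 ± 0.31 at ZT9 (SD, n = 15). It did not pass when centred within each set of assays (0.28, limma p = 0.119) or without ZT3 replicate 7 (0.51, limma p = 0.0525).

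Slc32a1, the transporter that loads GABA and glycine into synaptic vesicles, had normalized CT values of 23.89, 24.15, 24.66, 24.83, 24.15, 24.84 and 24.98 cycles at ZT3 and 24.42, 25.21 and 27.12 as lowest, median and highest of 14 ZT9 samples. The difference was -0.84 cycles (SE 0.27, limma p = 0.0047, adjusted p = 0.158), and 13 of the 14 had less than the ZT3 mean. Against the higher-numbered ZT9 animals (4 measured) it was -0.38 and did not pass (limma p = 0.176), and against the lower-numbered ones it was -1.03. The GABA-synthesizing enzyme Gad1 (-0.29) and the betaine and GABA transporter Slc6a12 (0.42) did not pass, and Slc6a2 differed by -0.0046. Of 9 GABA receptor subunit genes 2 passed without correction, beside 15.2% of all genes. Gabrg1 was lower (-0.46, SE 0.21, limma p = 0.0405) and Gabrr2 higher (2.03, SE 0.90, limma p = 0.0396), the latter measured in only 5 ZT3 and 8 ZT9 samples at the detection limit. Without ZT9 replicate 12 the Gabrr2 difference was 1.35, and with median-centred values it did not pass (limma p = 0.346).

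Of 11 glutamate receptor and scaffold genes, 5 were higher and 6 lower at ZT9 (median -0.10). The 1 that passed (beside 7.59% of all genes in its direction) was Homer2, a postsynaptic scaffold of group I metabotropic receptors, higher by 0.37 cycles (SE 0.17, limma p = 0.0347). With median-centred values it was higher by 0.20 (limma p = 0.231), and it did not pass with all 3 time points in the fit (limma p = 0.0543) or against the higher-numbered ZT9 animals (0.38, limma p = 0.111). Besides Hprt, the metabolic list held 2 genes that passed without correction among 10, Coq7 of ubiquinone synthesis (0.76, SE 0.32, limma p = 0.0244) and the prostaglandin synthase Ptgs1 (0.59, SE 0.27, limma p = 0.0361), both higher at ZT9 (beside 7.59% of all genes in this direction). Neither passed with median-centred values (0.70, limma p = 0.0521, and 0.32, limma p = 0.255) or against the higher-numbered ZT9 animals (0.35 and 0.53).

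In the other 6 lists 0 genes passed in either direction. The angiotensin list had 5 genes (median -0.09), with Ren1, renin, at 0.57 and a wide ZT3 range of 22.72 to 26.25 cycles. Without ZT3 replicate 3 Ren1 was at 0.22, and without ZT9 replicate 12 the list median was 0.07. The 6 DNA methylation, chromatin, repair and telomere genes lay between -0.01 and 0.16, the narrowest list, led by the methyl-CpG binding gene Mbd1 (0.16, or -0.02 without ZT3 replicate 7). Gnb1 (0.28) and Arrb1 (0.31) led the 6 G-protein, kinase and arrestin genes, although the identifier of the Gnb1 assay is that of Gnb4 in RefSeq, and Arrb1 was at 0.03 without ZT3 replicate 7. The stress peptide receptor Crhr2 (-0.65), the phosphatase Ptpn2 (-0.52) and the potassium channel Kcna2 (-0.42) had the lowest differences of the 8 neuromodulator, 7 phosphatase and 5 channel genes. Crhr2 was at -0.39 without ZT3 replicate 4 and Ptpn2 at -0.27 without ZT3 replicate 7.

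**Figure D4:**
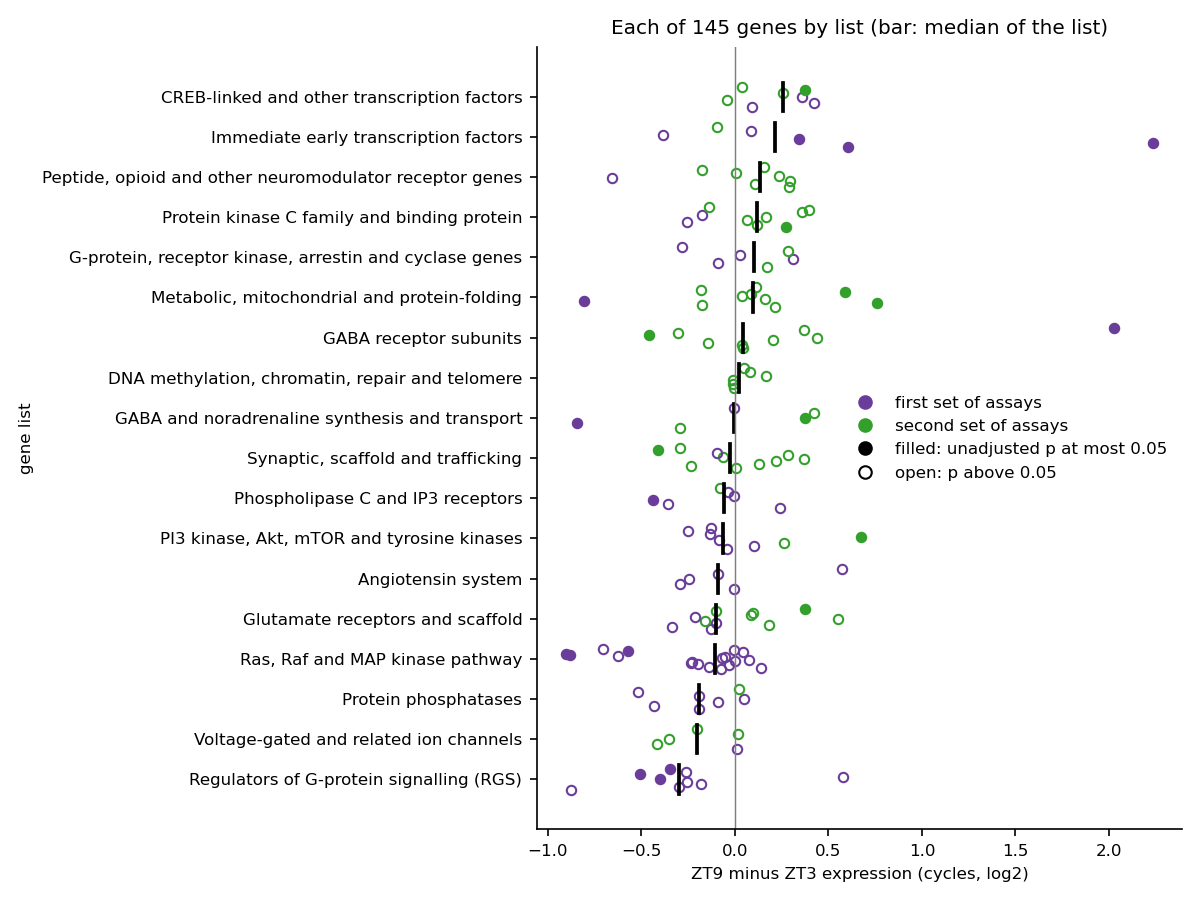
ZT9 minus ZT3 expression (cycles, log2 scale) of each of the 145 genes by functional list, with the list median as a bar; filled points have an unadjusted limma p at or below 0.05, and colour gives the set of assays. The RGS list has the lowest median (-0.30) and the CREB-linked list the highest (0.26), and 55 of the 74 purple points lie to the left of 0 (46 of 74 without ZT9 replicate 12). Without that sample the channel list has the lowest median (-0.29, RGS -0.28). The immediate early list then has the highest (0.29, CREB-linked 0.13).

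The lists were not spread evenly over the assays, and the share of genes lower at ZT9 was not the same across them. Genes share the same samples, so these shares are a description and were not tested. The non-normalized values show 2 sets of assays, 74 genes that failed together in 2 CeA samples and the 71 others. At ZT9, 55 of the 74 (74.3%) were lower with a median of -0.13 cycles, against 23 of the 71 (32.4%) with a median of 0.09. Without ZT9 replicate 12 these were 46 of 74 (62.2%) with a median of -0.07 and 29 of 71 (40.8%) with a median of 0.05. All 9 RGS genes and all 18 Ras and MAP kinase genes belong to the first set. The mean CT of the first set minus that of the second was -0.02 ± 0.29 cycles at ZT3 (SD, n = 7) and 0.15 ± 0.49 at ZT9 (SD, n = 15). No difference between the time points was detected in it (exact permutation p = 0.426). It was 1.41 in ZT9 replicate 12 and -0.96 in ZT9 replicate 11. When each sample was centred within each set, 64.9% and 64.8% of the sets were lower, 8 of 9 RGS genes stayed lower (median -0.29, 4 passing without correction), and 14 of 18 Ras and MAP kinase genes did (median -0.10, 4 passing). Fosl1 passed under this scale (2.22, limma adjusted p = 0.0228), as did Rasa1 (-0.92, adjusted p = 0.0145), while Hprt did not (-0.18, adjusted p = 0.425).

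Some of the genes are markers of cell types, and the part of cell types in the results was not tested. Of 2 astrocyte-enriched genes, Ntrk2 passed without correction and Clu (-0.18) did not, and their mean CT ran from 13.24 to 14.12 at ZT3 and from 12.82 to 14.44 at ZT9. The 2 GABA neuron markers, Gad1 and Slc32a1, had mean CT values of 20.51 to 21.72 at ZT3 and 21.23 to 22.54 in the 13 ZT9 samples with both. The 3 neuron markers Nrxn3, Grin1 and Gria2 ranged from 18.23 to 18.96 at ZT3 and from 18.04 to 18.77 at ZT9, with 2 of 3 lower (53.8% of all genes) and 0 of 3 passing. The 3 microglia and blood cell markers ranged from 22.85 to 23.26 at ZT3 (6 samples with all 3) and from 22.44 to 23.89 at ZT9 (14 samples). Of these 1 passed (Ptgs1, higher by 0.59, beside 15.2% of all genes in either direction). The other 2 of the 3 were lower, Rasgrp4 by 0.70, and did not pass. The endothelial markers Ace (-0.01) and Cav2 (0.01) did not pass. None of these markers was undetected in a whole group.

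Of the 22 genes that passed without correction, 21 had the same direction against the 5 higher-numbered ZT9 animals as against all 15, but the median size was 0.30 cycles there and 0.58 against the 10 lower-numbered ones, both taken from the same 7 ZT3 samples, and 5 of the 22 passed again without correction. This is a description only, since the 22 were chosen in a comparison in which 10 of the 15 ZT9 animals are lower-numbered. Over all 145 genes the median sizes were 0.16 and 0.24 cycles, and the higher-numbered subset gave 9 genes (6.21%) without correction and 0 with it. Within ZT9 itself, 23 genes (15.9%) differed between higher- and lower-numbered animals without correction and 1 (0.690%) with it, the GABA-A receptor subunit gene Gabrg3. Its mean CT was 19.54 cycles in the higher-numbered and 20.78 in the lower-numbered animals, 1.24 cycles more transcript in the former (limma adjusted p = 0.0436). Its ZT9 minus ZT3 difference was accordingly 0.52 against the higher-numbered and -0.72 against the lower-numbered animals. With the number group as a factor in the fit, 1 gene passed with correction, Egr1 (1.15, limma adjusted p = 0.0128), and Fosl1 and Hprt had an adjusted p of 0.138 each. As no ZT3 animal is lower-numbered, the differences of that fit are those of the higher-numbered subset, and only their error is estimated from all samples.

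**Figure D5:**
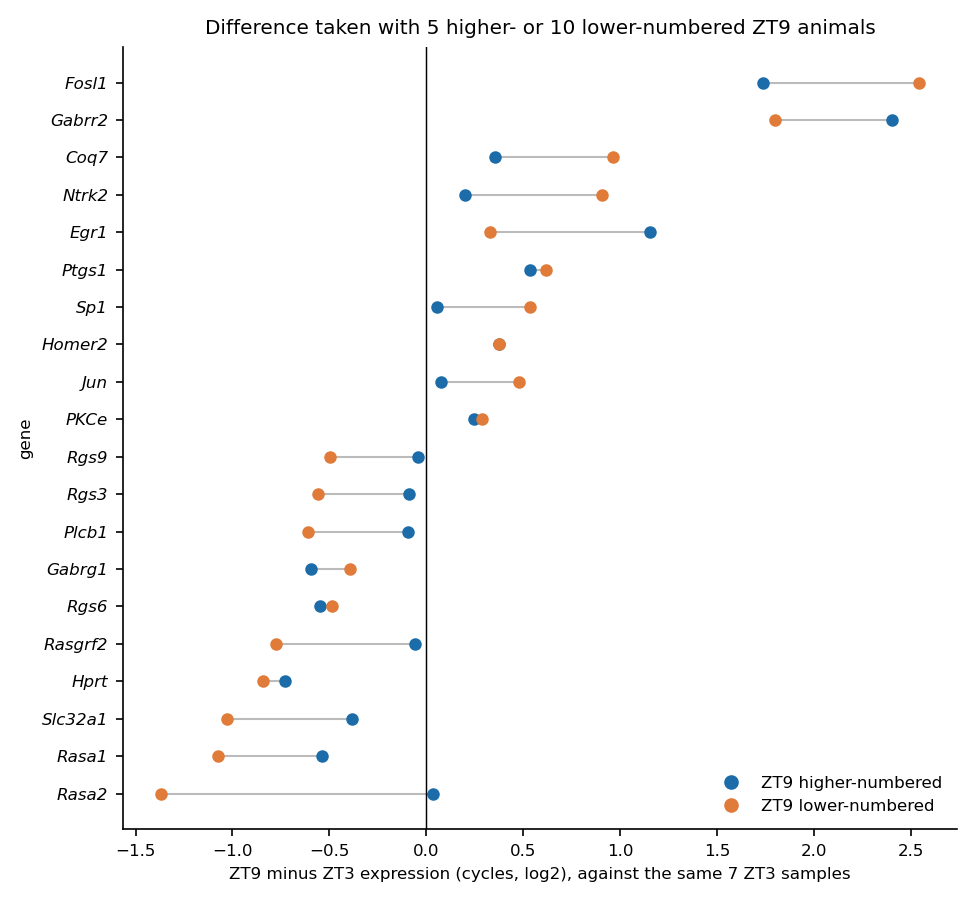
ZT9 minus ZT3 expression (cycles, log2 scale) of 20 of the 22 genes with an unadjusted limma p at or below 0.05, taken with the 5 higher-numbered (blue) or the 10 lower-numbered (orange) ZT9 animals against the same 7 ZT3 samples. Rasa2 runs from -1.37 to 0.04, Egr1 is further from 0 in the blue animals (1.15 and 0.33), and Hprt is at -0.73 and -0.84.

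ZT5 animals were not used in the comparison, and their mean CT lay between the ZT3 and ZT9 means for 17 of the 22 genes (77.3%) and for 49 of all 145 (33.8%), a description only, since the 22 were chosen for a distance between the outer means. For Fosl1 the ZT5 mean was 24.79 ± 1.46 cycles (SD, n = 11 of 17 measured), between 25.50 and 23.26. For Hprt it was 15.00 ± 0.43 (SD, n = 17), beyond the ZT9 mean of 14.79.

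The same time interval was measured in the CeA of 19 of the 22 animals, and the difference between regions was tested directly. The region by time interaction gave 0 of 143 genes (0.00%) with correction and 10 (6.99%) without it (limma, smallest adjusted p = 0.316). Fosl1 was higher at ZT9 by 1.11 cycles in the CeA against 2.23 in the DVC (interaction p = 0.222 in limma), and Hprt differed by -0.33 against -0.80 (interaction p = 0.0945). The genes that passed here and reached an unadjusted interaction p at or below 0.05 were Ntrk2 (0.67 in the DVC and -0.32 in the CeA), Sp1 (0.38 and -0.28), Egr1 (0.60 and -0.32) and Rasgrf2 (-0.57 and 0.40). This is a description only, since these genes were chosen for their DVC difference, which is part of the interaction. Against the higher-numbered ZT9 animals the DVC differences were 0.20 for Ntrk2, 0.06 for Sp1, 1.15 for Egr1 and -0.06 for Rasgrf2.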

How the data were processed

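RNA from bilateral micropunches was reverse-transcribed, pre-amplified and measured by qRT-PCR on Fluidigm dynamic arrays. The authors deposited CT values on a log2 scale, non-normalized and quantile-normalized over the 72 samples, with failed reactions blank, and the normalized log2 values were used. A deposited table of means and differences from ZT5, made by the authors, was not used. The non-normalized table names the DVC columns NTS. The extraction kit, 1 of 2, is not given per sample. Symbols follow the assay list, and 144 of 145 gene identifiers were found in RefSeq, 16 under another symbol.

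The members and gene lists were chosen with earlier results of these data known. ZT9 was compared with ZT3 by the moderated test of limma (version 3.58.1, R 4.3.3) on 22 samples, with at least 2 values per group, Benjamini-Hochberg adjustment over 145 genes and a threshold of 0.05, beside the study's uncorrected threshold and its 0.25 cycles. Folds assume doubling per cycle. Single genes were also tested by two-sided exact permutation (scipy 1.17.1, 170544 splits for 7 against 15 samples, 792 for 7 against 5). The interaction with the CeA kept the animal as a random block. The script was tested on simulated data. Genes were named if they passed either p threshold, or had the smallest p or the largest difference in a list with none. Some of these are not reported here. Alternatives were other scales, covariates, tests, subsets and leaving out each sample. Array position and run are not given in the sources used here. The primer sequences come from the study's assay list and were not placed on a genome. CT values carry no read depth, so the number of samples sets the precision.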

Additional observations from a re-analysis of the deposited data

Results flagged for a closer look

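In 28 groups of 4 to 10 samples that were checked for a lone extreme value among the genes named, 4 had one, and chance flags about 1 group in 20. Most ZT9 groups had 13 to 15 values and fell outside this size, so the check covered mainly ZT3. ZT3 replicate 7, the ZT3 sample with the latest median CT (20.5 cycles), was the extreme sample in 3 of them. Its normalized CT was 21.8 for Rasa2 (22.5 to 23.0 in the other ZT3 samples), 21.0 for Arrb1 (18.7 to 19.5) and 19.5 for Kcna2 (18.6 to 19.0). Gabrr2 had a normalized CT of 19.8 in ZT9 replicate 12, the sample that stood apart over all genes, against 23.7 to 27.1 in the other ZT9 samples of its group.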

How the results depend on the processing

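Fosl1 and Hprt passed the corrected threshold in limma whichever single sample was left out (adjusted p 0.0017 to 0.0305 and 0.0016 to 0.0305), when the DVC samples were normalized alone, and with the median CT as a covariate. Leaving out single samples gave 2 to 3 genes with correction, 15 to 24 without it and 51 to 67 beyond 0.25 cycles, and Rasa1 passed without ZT3 replicate 1 or without ZT9 replicate 5, 11, 13 or 15. The number of genes passing with correction was 4 with non-normalized median-centred values (Fosl1, Rasa1, Rgs6 and Slc32a1), 1 without any normalization (Fosl1), 1 among genes measured in all samples (Hprt), 0 in higher-numbered animals and 1 with the number group as a factor. It was 1 by Welch's test (Rasa1), 1 by exact permutation of rank sums (Hprt) and 2 by exact permutation of means and by the methods' t-test. Without correction the number was 10 without normalization, 9 in higher-numbered animals, 8 with the number group as a factor, and 14 without the 2 samples of highest median CT. Replicate numbers did not pair the samples (correlations of same-numbered samples -0.21 to 0.31, with 1 of 7 best with its own number). The fit with a replicate block gave 4 genes with (Rasa1, Rasa2, Hprt and Ptgs1) and 34 without correction, and the same samples with no replicate block gave 8 and 36. Both fits hold replicates 1 to 7 of each group only, with every ZT3 animal higher-numbered and every ZT9 animal lower-numbered. Time point and animal number cannot be told apart in them. Of the 22 calls without correction 11 were higher at ZT9, but 6 of 22 with median-centred values, where the median of all genes was -0.12 (-0.24 without normalization), and 5 of 23 when centred within the sets of assays. In higher-numbered animals 39 of the 145 genes had the opposite sign, among them Creb1, Elk1, Junb and Gabrg3. Of the genes chosen by the naming rule, signs turned for Rasa2 (0.037) and Kcna2 (0.078), both in higher-numbered animals and, as the same contrast, with the number factor. The sign also turned for Mbd1, at -0.011 median-centred, -0.15 without normalization, -0.047 with the block, -0.10 centred within sets, -0.0019 without the 2 samples of highest median CT and -0.017 to 0.30 over samples left out. Centring within sets, the number factor, the fit on the block's samples and leaving out single samples or the 2 of highest median CT were chosen after seeing the data. The cause of these changes was not tested.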
